A study of Mus musculus with 6 samples.

Results

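The genes of the mitochondrial genome were taken as every row of the deposited heart count table that lies on the chromosome named MT, which gave 37 of 56748 genes. They are the 13 mRNA genes for subunits of the respiratory chain and the ATP synthase, the 2 rRNA genes and 22 tRNA genes. RNA came from whole hearts of 3 Pontin cTG mice and 3 wild type (WT) littermates, and each heart gave 1 library. The transgene of Pontin cTG mice is a human Pontin cDNA with a flag tag, driven in cardiomyocytes by the αMHC promoter, and the mice were made by pronuclear injection on a C57BL/6 background. WT littermates do not carry the transgene. Both groups were male mice of 10 weeks at the start and received angiotensin II (Ang-II) from a mini-osmotic pump for 14 days, at a daily dose of 1.5 mg/kg BW, so that hearts without Ang-II have no part in the comparison. The question was which mitochondrial transcripts differ between Pontin cTG and WT hearts under this pressor stimulus.

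Total counts ran from 12436822 to 13194038 in the WT libraries and from 14584102 to 16888124 in those of Pontin cTG hearts, without overlap. On the first principal component, which held 48.6% of the variance over all genes, the library of Pontin cTG replicate 2 lay at 50.9 and the other 5 between -23.1 and 16.2. Ruvbl1, the mouse gene of Pontin, had 216, 221 and 217 normalised counts in WT libraries and 250, 250 and 240 in Pontin cTG hearts, a log2 fold change of 0.18 (SE 0.12, edgeR adjusted p = 0.999). The groups did not overlap for Ruvbl1, and 4.7% of all genes tested were likewise higher in Pontin cTG hearts without overlap. How far reads of the human cDNA were counted on the mouse gene is not known. Normalised counts here are counts scaled by TMM library size, a scaling that assumes that most genes do not change. Cardiomyocyte markers summed to 820476 to 919240 normalised counts in the WT libraries and 780922 to 832717 in Pontin cTG hearts, with all 8 genes tested. The adipocyte markers Adipoq, Plin1 and Ucp1 and the atrial markers Myl7, Sln and Bmp10 were at 0 in at least 1 library. The rest of the adipocyte and atrial lists had counts in every library, with 348 to 547 for the adipocyte marker Cidea. The atrial markers Myl4 and Nppa had 8 to 51 and 416 to 9011. The summed fibroblast, endothelial, macrophage, smooth muscle and erythroid markers overlapped between the groups.

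Mitochondrial DNA is a small circle in the matrix, present in many copies per cell, and the heart is among the tissues richest in it. Both strands are copied by the polymerase POLRMT, with TFAM and TFB2M at the promoters, into long precursors that carry many genes in a row. The tRNAs between the coding stretches are then cut out by RNase P and ELAC2, which releases the mRNAs and rRNAs, and most mRNAs receive a short poly(A) tail. LRPPRC and SLIRP hold the mRNAs stable, and PNPT1 with SUPV3L1 degrades RNA. The 13 proteins made from these mRNAs are built into complexes I, III and IV and the ATP synthase together with many subunits imported from the cytosol, so that each of these complexes depends on both genomes.

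In the mouse genome a long stretch of this sequence is also present in the nucleus, which bears on the counts of the genes in it. Transcripts of GENCODE M21 (GRCm38) were searched for copies, and 7 pseudogenes in a row on the minus strand of chromosome 1, at chr1:24611535-24616197, matched MT:6390-11042 in the same order. Gm28661 matched mt-Co2 over 681 bases, Gm10925 matched mt-Atp6 over 678, Gm28437 matched mt-Co3 over 783, Gm10222 matched mt-Nd4l over 294 and Gm28439 matched mt-Nd4 over 876, all with 0 mismatches. Over the 4140 bases aligned in the 7 pairs there were 2 mismatches. The first, A1066T, lies close to the 5′ end of the stretch that mt-Co1 shares with Gm29216, where positions are counted from 1 at the 5′ end of the mitochondrial gene, the mitochondrial base is given first and capitals mark it. The shorter Gm29216 line starts at the first base of its transcript, and the match begins at base 10. The bases before that lie outside the match, and differences there are not marked.
mt-Co1 (MT:6363-6423, plus strand): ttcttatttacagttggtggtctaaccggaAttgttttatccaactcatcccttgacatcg
Gm29216 (minus strand of chromosome 1): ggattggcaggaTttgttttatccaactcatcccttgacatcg
The second, T3C, is in the opening codon of mt-Nd3 and is the only difference that tells mt-Nd3 from Gm28438 over 345 bases.
mt-Nd3 (MT:9459-9491, plus strand): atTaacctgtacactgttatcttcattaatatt
Gm28438 (minus strand of chromosome 1): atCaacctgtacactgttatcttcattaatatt
Of the 37 mitochondrial genes, 11 lie wholly between the ends of the matched stretch (mt-Ts1, mt-Td, mt-Co2, mt-Tk, mt-Atp8, mt-Atp6, mt-Co3, mt-Tg, mt-Nd3, mt-Tr and mt-Nd4l), and mt-Co1 and mt-Nd4 lie there in part. Only transcripts were searched, and none of the chromosome 1 pseudogenes was paired with mt-Ts1, mt-Td, mt-Tk, mt-Atp8, mt-Tg or mt-Tr, so that a copy of these was not tested. The pseudogenes lie at nearly the same distances on chromosome 1 as the matched parts on MT. The stretches between them may therefore hold copies of these genes too. Reads from the identical part cannot be assigned to either place by their sequence, and how the counting treated them is not given in the sources used here.

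The copies took 1.10% to 1.55% of all counts of a library. As a share of the counts of each pair, the copy held 1.62% to 2.47% beside mt-Co1 and 5.75% to 8.77% beside mt-Nd4, which are copied in part. Where the mitochondrial gene is copied over nearly its whole length, the copy held far more, with 28.6% to 44.4% beside mt-Co2, 30.1% to 48.0% beside mt-Atp6, 34.5% to 45.4% beside mt-Co3, 24.7% to 45.3% beside mt-Nd3 and 30.2% to 50.2% beside mt-Nd4l. For mt-Co3 the share in the copy was 42.8%, 34.5% and 43.9% in WT and 45.3%, 45.4% and 43.9% in Pontin cTG hearts, groups that all but touch, and for the other 6 pairs the groups overlapped. Gm28439, the copy of mt-Nd4, had 23920, 24815 and 29195 normalised counts in WT libraries and 21084, 18715 and 20064 in Pontin cTG hearts (log2 fold change -0.38, SE 0.14, edgeR adjusted p = 0.999, and 0.0246 before adjustment). The other pseudogene close to a mitochondrial gene that held counts in number was Gm13340 on chromosome 2, 97.6% identical to mt-Co1, with 2392 to 3471 counts.

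**Figure D1:**
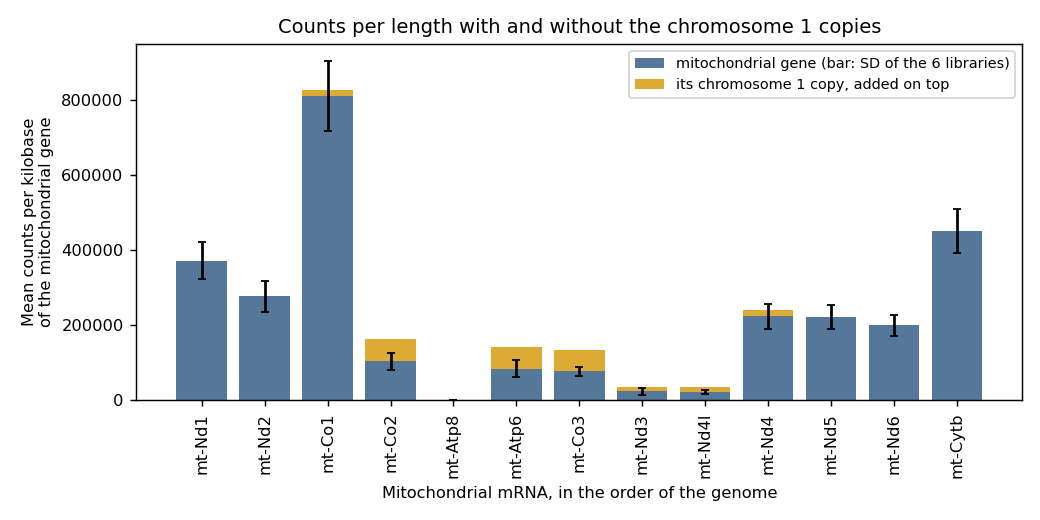
Mean counts per kilobase of the 13 mitochondrial mRNA genes over the 6 libraries (blue bars, error bars are the SD of the 6 libraries) in genome order, with the counts of the chromosome 1 copy, where there is one, added on top (yellow). mt-Co1 is the tallest bar at 810727 counts per kilobase, the copies add visibly to mt-Co2, mt-Atp6, mt-Co3, mt-Nd3 and mt-Nd4l, and mt-Atp8 is too low to be seen.

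Mitochondrial genes held a similar part of the libraries in both groups. Their share of all counts was 26.7%, 25.5% and 24.8% in WT (25.7% ± 0.96, SD, n = 3) and 23.8%, 24.1% and 25.8% in Pontin cTG hearts (24.6% ± 1.07, n = 3). The groups overlapped, and the difference of -1.12 percentage points was close to the spread within each group. In bulk tissue, fewer cells of a type and less RNA per cell cannot be told apart, and the same holds for a share. The mRNAs made up 95.7% to 97.1% of the mitochondrial counts, the rRNAs 2.65% to 3.94% and the tRNAs 0.24% to 0.33%. The study's methods name a kit that captures polyadenylated RNA, so that these proportions are those of the captured RNA. The rRNA share was lowest in the second replicate of each group, at 2.65% in WT and 2.66% in Pontin cTG hearts, against 3.35% to 3.94% in the other 4 libraries.

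Per length, mt-Co1, which encodes the catalytic core of cytochrome c oxidase, was highest in all 6 libraries. It held 25.9% ± 0.34 of the summed counts per kilobase of the mitochondrial genes in WT and 26.3% ± 1.05 in Pontin cTG hearts. mt-Cytb, the only complex III subunit of this genome, came next with 14.2% ± 0.25 and 14.8% ± 0.84, then mt-Nd1 with 11.8% ± 0.27 and 12.1% ± 0.55 and mt-Nd2 with 9.02% ± 0.39 and 8.80% ± 0.65. These genes kept the ranks 1 to 4 in every library. mt-Nd5, mt-Nd4 and mt-Nd6 followed at 7.79% ± 0.38, 7.00% ± 0.16 and 6.57% ± 0.43 in WT, and at 6.60% ± 0.90, 7.38% ± 0.40 and 6.31% ± 0.17 in Pontin cTG hearts, so that the order of mt-Nd5 and mt-Nd4 was not the same in both groups. mt-Co2, mt-Atp6 and mt-Co3 held 2.48% to 3.48% on average in either group, with spreads that overlapped between mt-Atp6 and mt-Co3. mt-Rnr2 was at 1.73% ± 0.26 and 1.77% ± 0.40, below all mRNAs but mt-Nd3, mt-Nd4l and mt-Atp8. mt-Atp8 was at rank 30 of 37 with 0.025% ± 0.010 in WT, lower than 15 of the 22 tRNA genes. For genes this short, the rank also depends on the counting rule.

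With the counts of the copies added, mt-Co2 went from 103964 to 162428 counts per kilobase on average, mt-Atp6 from 83890 to 142556 and mt-Co3 from 76990 to 134862, all still below mt-Nd6, the light-strand mRNA. mt-Nd3 went from 23540 to 35550 and mt-Nd4l from 21828 to 36060. mt-Co1 and mt-Nd4, the genes copied in part, moved from 810727 to 827769 and from 223794 to 240313. The sums give full levels only if reads from the identical part were neither dropped nor counted at both places, which is not known. The order per length of the copied genes has the same limit.

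Of the 37 genes, 32 had enough counts to be tested: all 13 mRNAs, both rRNAs and 17 tRNAs. Those not tested were the tRNA genes mt-Tv, mt-Td, mt-Tk and mt-Tt, with 0 to 7 counts per library, and mt-Tf with 0 counts in all 6 libraries, where a count of 0 allows up to 3 counts. A tRNA gene is shorter than the 100-base reads that the study's methods name, so what is counted on one depends on its neighbours and on the counting rule. Among the tRNAs, the cysteine gene mt-Tc was highest per length over all libraries together, with 1532 to 2920 counts, though mt-Te ranked above it in WT replicate 1 and both mt-Tp and mt-Te did in Pontin cTG replicate 2, while the phenylalanine gene mt-Tf, of about the same length, had none. Both are shown here to set their sequences side by side, each in the sense of its gene.
mt-Tf (MT:1-68, plus strand): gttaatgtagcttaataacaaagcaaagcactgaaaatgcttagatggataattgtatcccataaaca
mt-Tc (MT:5192-5257, minus strand): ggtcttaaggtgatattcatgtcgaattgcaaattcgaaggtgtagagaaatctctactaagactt
The 4 tRNAs highest per length over all libraries together were mt-Tc, mt-Tp and mt-Te, whose genes lie on the minus strand like mt-Nd6, followed by the minus-strand mt-Ty. How far RNA of the opposite strand was counted on these genes is not known.

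None of the 32 mitochondrial genes differed between the groups at an adjusted p under 0.05, whether tested in edgeR, in DESeq2 or in limma-voom. Of all 13888 genes, these tools called 0%, 0.0072% and 0.0216%. In edgeR the adjusted p was 0.999 for all 32. Before adjustment 1 of the 32 (3.125%) had a p under 0.05 in edgeR, in the direction lower in Pontin cTG, against 2.05% of all genes tested in either direction and 1.03% lower. That count became 4 when Pontin cTG replicate 3 was left out and 0 when replicate 1 or 2 of Pontin cTG or replicate 3 of WT was. Log2 fold changes lay between -0.58 for mt-Nd4l and 0.34 for mt-Tl2, and 24 of the 32 were below 0, against 49.8% of all genes. The median over the 32 was -0.06 with TMM scaling and 0.03 when libraries were scaled to their mitochondrial mRNA counts, and the median over all genes was 0.00. With Pontin cTG replicate 2 left out the median was 0.02 and 15 of the 32 were below 0, and with replicate 3 of that group left out it was -0.23 with 29 below 0. In 1 of the 32, mt-Ta, the libraries of the groups did not overlap (3.125%), against 8.33% of all genes tested. The counts of 1 differ little from those over all genes, and the share of negative values turns on which Pontin cTG library is kept.

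**Figure D2:**
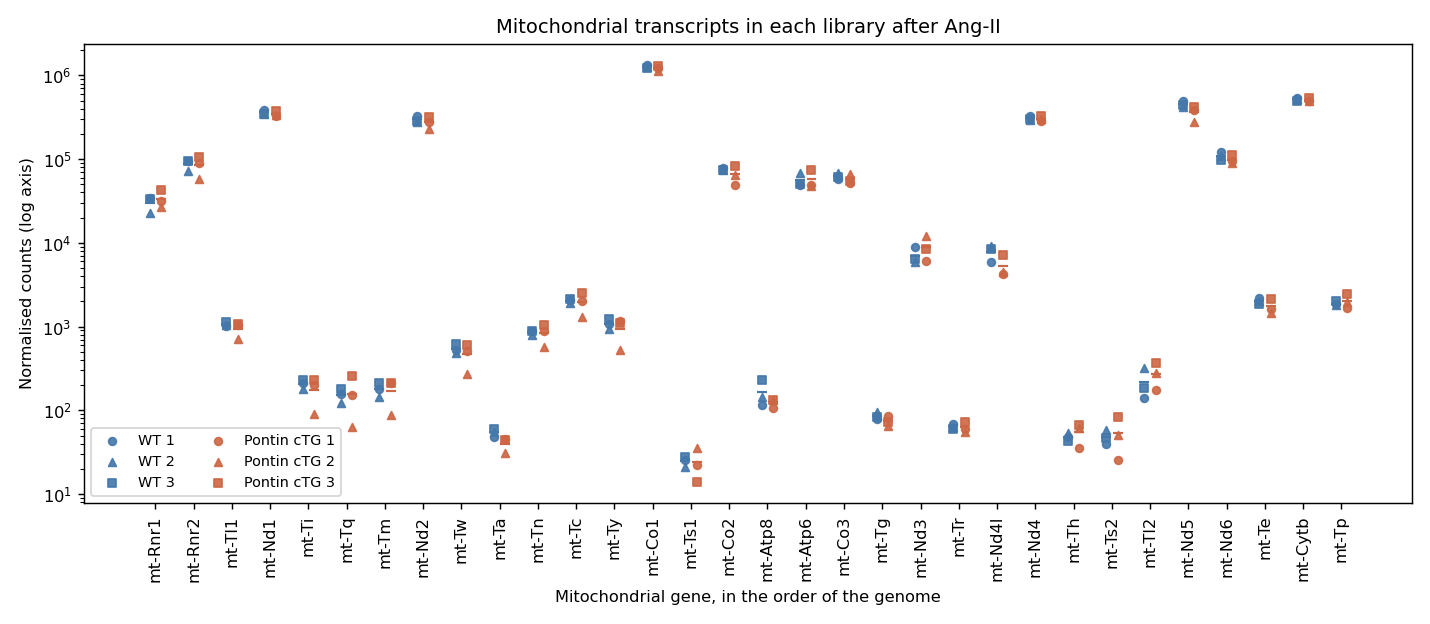
Normalised counts (log axis) of the 32 mitochondrial genes tested in each of the 3 WT (blue) and 3 Pontin cTG (orange) libraries, in genome order, with a horizontal line at each group's mean. The groups overlap for every gene but mt-Ta, and the orange triangles of Pontin cTG replicate 2 are the lowest points from mt-Ti to mt-Ty.

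The lowest p belonged to mt-Nd4l, which encodes a small membrane subunit of complex I. It lies at MT:9877-10173 on the plus strand, wholly inside the copied stretch, and its last 7 bases, in capitals, are also the first 7 of mt-Nd4.
mt-Nd4l: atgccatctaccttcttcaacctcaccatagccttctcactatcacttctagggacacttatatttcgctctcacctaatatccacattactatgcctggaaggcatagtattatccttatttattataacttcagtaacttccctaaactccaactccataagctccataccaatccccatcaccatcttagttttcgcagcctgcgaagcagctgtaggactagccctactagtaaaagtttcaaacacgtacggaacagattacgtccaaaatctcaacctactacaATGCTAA
mt-Nd4l had 5906, 9304 and 8383 normalised counts in WT libraries and 4223, 4471 and 7098 in Pontin cTG hearts. Pontin cTG replicates 1 and 2 were below every WT library, and replicate 3 was above WT replicate 1. The log2 fold change was -0.58 (SE 0.24, edgeR adjusted p = 0.999, and 0.0416 before adjustment). With the counts of Gm10222 added it was -0.49 (SE 0.20, edgeR adjusted p = 0.999, and 0.0376 before adjustment). The p before adjustment rose above 0.05 when any single library other than WT replicate 1 or Pontin cTG replicate 3 was left out, to between 0.113 and 0.148, with a log2 fold change between -0.44 and -0.52. Relative to mt-Nd4, its partner on the bicistronic mRNA, mt-Nd4l stood at 0.0182, 0.0317 and 0.0276 in WT and 0.0148, 0.0150 and 0.0216 in Pontin cTG hearts. That ratio did not pass the two-sided exact permutation test (p = 0.2, adjusted 0.333 over 5 ratios, where 0.1 is the smallest p that 3 against 3 allows). The ratio also depends on how reads over the shared bases and the copied stretch were counted, which is not known.

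The other complex I subunits of the mitochondrial genome were mostly close to 0. mt-Nd5 encodes a large antiporter-like subunit at the tip of the membrane arm. It had 499517, 420805 and 439250 normalised counts in WT libraries and 386712, 280760 and 421741 in Pontin cTG hearts, with replicate 3 just inside the WT range and replicate 2 far below (log2 fold change -0.32, SE 0.17, edgeR adjusted p = 0.999, and 0.0851 before adjustment). Without Pontin cTG replicate 2 the value was -0.16. mt-Nd3, whose loop takes part in the active to deactive switch of complex I, had 8816, 5854 and 6491 in WT and 6146, 12108 and 8389 in Pontin cTG hearts, so that the highest value was that of Pontin cTG replicate 2. Its log2 fold change was 0.33 (SE 0.26), and -0.07 without both second replicates.

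mt-Nd1, mt-Nd2 and mt-Nd4, further core membrane subunits of complex I, had log2 fold changes of -0.06 (SE 0.12), -0.12 (SE 0.15) and -0.01 (SE 0.12). For mt-Nd1 the libraries read 390118, 346012 and 348373 in WT and 330949, 336513 and 373281 in Pontin cTG hearts, which overlapped. mt-Nd6 is the only mRNA of the light strand. It had 120614, 108201 and 97457 normalised counts in WT libraries and 94086, 88939 and 112283 in Pontin cTG hearts (-0.14, SE 0.15). mt-Nd6 overlaps the 3′ end of mt-Nd5 by 14 bases on the other strand. Strand use in the libraries and the counting is not given in the sources used here. Counts on mt-Nd6 and the minus-strand tRNAs may therefore include RNA of the opposite strand, also in ratios that use mt-Nd6. Complex I as a whole took 42.2% ± 1.10 of mitochondrial counts in WT libraries and 40.7% ± 1.00 in Pontin cTG hearts, with overlapping libraries.

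mt-Cytb varied least of the 32 genes across the libraries, followed by mt-Nd4 and mt-Co1. mt-Cytb, the heme-bearing subunit of complex III, had 538532, 516797 and 497784 normalised counts in WT libraries and 490804, 496228 and 534298 in Pontin cTG hearts (-0.03, SE 0.11). Its highest library was 1.10 times its lowest, against 1.15 times for mt-Nd4 and 1.18 times for mt-Co1. mt-Co1 had 1338200, 1267210 and 1223770 in WT and 1223730, 1137830 and 1293820 in Pontin cTG hearts (-0.07, SE 0.11). The other cytochrome c oxidase subunits, the copper-bearing mt-Co2 and the structural mt-Co3, had -0.20 (SE 0.19) and -0.11 (SE 0.15). mt-Co2 was at 77897, 74319 and 74974 in WT, a narrow range, and at 48704, 65361 and 83497 in Pontin cTG hearts, where the libraries lay on both sides of it. With the copies added these values were -0.09 (SE 0.15) and 0.00 (SE 0.14), where 0.00 is the value of mt-Co3.

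mt-Atp8 and mt-Atp6 are read from a single mRNA and encode membrane subunits of the ATP synthase. They share 43 bases, in capitals. mt-Atp6 has the copy Gm10925, and the rest of mt-Atp8 was not searched on chromosome 1 outside transcripts. The sequence is shown because mt-Atp8 had so few counts beside its partner. How reads over the shared bases or the copied stretch were counted is not given in the sources used here. The gap between the counts is therefore not read as a difference in mRNA.
mt-Atp8 (MT:7766-7969, plus strand): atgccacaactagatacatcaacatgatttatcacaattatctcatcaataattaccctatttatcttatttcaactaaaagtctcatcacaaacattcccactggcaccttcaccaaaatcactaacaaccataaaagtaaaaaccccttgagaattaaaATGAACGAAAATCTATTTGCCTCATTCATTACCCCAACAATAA
mt-Atp8 had 116, 144 and 231 normalised counts in WT libraries and 107, 134 and 134 in Pontin cTG hearts (-0.38, SE 0.26). The value turned on WT replicate 3, the highest library, and was -0.04 without it and -0.58 without WT replicate 1. mt-Atp6 had 49128, 68562 and 49832 in WT and 49522, 47317 and 74914 in Pontin cTG hearts (0.04, SE 0.21), and -0.08 (SE 0.14) with its copy added. The counts of mt-Atp8 per count of mt-Atp6 ranged over 0.0021 to 0.0046 in WT libraries and 0.0018 to 0.0028 in those of Pontin cTG hearts (two-sided exact permutation p = 0.6, adjusted 0.6).

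The rRNAs of the small and large mitochondrial ribosomal subunit varied more between libraries of a group than between groups. mt-Rnr1 had 34599, 22877 and 33027 normalised counts in WT libraries and 32010, 26693 and 42272 in Pontin cTG hearts (0.16, SE 0.22), and mt-Rnr2 had 95523, 71504 and 95171 in WT and 90924, 57239 and 106415 in Pontin cTG hearts (-0.04, SE 0.23). The second replicate was the lowest of its group for both. The ratio of mt-Rnr2 to mt-Rnr1 was 2.92 ± 0.19 in WT and 2.50 ± 0.35 in Pontin cTG hearts (n = 3 each, two-sided exact permutation p = 0.2, adjusted 0.333). The other ratios within a library, mt-Nd6 to mt-Nd5 (0.240 ± 0.018 and 0.275 ± 0.038, exact permutation p = 0.2, adjusted 0.333) and mt-Nd1 to mt-Cytb (0.698 ± 0.027 and 0.684 ± 0.013, exact permutation p = 0.6, adjusted 0.6), did not pass either.

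Among the 17 tRNAs tested, 12 had log2 fold changes below 0 and the median was -0.05. The alanine tRNA mt-Ta, on the minus strand between mt-Tw and mt-Tn, was the only mitochondrial gene whose groups did not overlap, and its sequence is given for that reason.
mt-Ta (MT:5018-5086, minus strand): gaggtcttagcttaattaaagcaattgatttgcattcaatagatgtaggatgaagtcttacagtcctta
It had 48.5, 55.0 and 60.4 normalised counts in WT libraries and 44.9, 30.8 and 44.2 in Pontin cTG hearts (log2 fold change -0.45, SE 0.26, edgeR adjusted p = 0.999, and 0.118 before adjustment). Of all genes tested, 3.63% were likewise lower in Pontin cTG hearts without overlap, and mt-Ta rests on 36 to 54 counts per library. Without Pontin cTG replicate 2 its value was -0.29.

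The tRNAs beside mt-Ta in the cluster after mt-Nd1 were lowest in Pontin cTG replicate 2. Of the plus-strand tRNAs here, mt-Ti had -0.25 (SE 0.30), mt-Tm -0.07 (SE 0.32) and mt-Tw -0.23 (SE 0.26). Of those on the minus strand, mt-Tq had 0.05 (SE 0.41), mt-Tn -0.02 (SE 0.21), mt-Tc -0.05 (SE 0.22) and mt-Ty -0.21 (SE 0.27). For mt-Tq, the glutamine tRNA, Pontin cTG libraries read 153, 63.4 and 258 normalised counts around the WT values of 155, 122 and 181, the widest spread of all members at 4.07 times from lowest to highest. The remaining tRNAs lay further along the genome or before mt-Nd1. mt-Tl1, next to mt-Rnr2, had -0.17 (SE 0.17), mt-Ts1 -0.04 (SE 0.40), mt-Tg -0.22 (SE 0.21), mt-Tr -0.03 (SE 0.22) and mt-Te -0.21 (SE 0.17). The tRNAs with positive values were mt-Th with 0.18 (SE 0.29), mt-Ts2 with 0.15 (SE 0.40), mt-Tl2 with 0.34 (SE 0.33) and mt-Tp with 0.10 (SE 0.16), beside mt-Tq. The run of mt-Th, mt-Ts2 and mt-Tl2 sits between mt-Nd4 and mt-Nd5, and in all of them Pontin cTG replicate 3 was the highest of the 6 libraries.

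**Figure D3:**
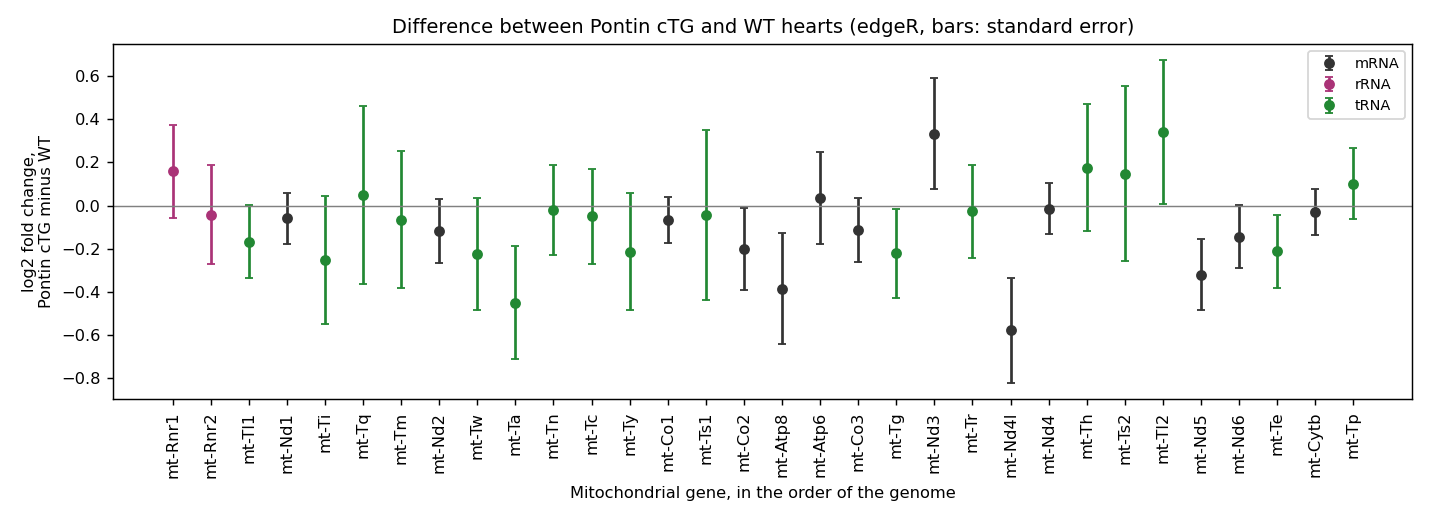
Log2 fold change of Pontin cTG against WT hearts (y axis, TMM scaling, edgeR) for the 32 mitochondrial genes tested in genome order, with mRNAs in black, rRNAs in magenta, tRNAs in green and bars of 1 standard error. Values run from -0.58 for mt-Nd4l to 0.34 for mt-Tl2, and none passed an adjusted p of 0.05.

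Much of the spread within the Pontin cTG group lay in replicate 2. This library was the lowest of the 6 in 18 of the 32 genes, among them 12 of 17 tRNAs and 5 of 13 mRNAs. In the run from mt-Ti to mt-Ty, which holds mt-Nd2 and 8 tRNAs, it lay between 0.31 times the mean of the other Pontin cTG libraries for mt-Tq and 0.78 times for mt-Nd2. It was at 0.58 times for mt-Rnr2, 0.69 times for mt-Nd5 and 0.97 times for mt-Cytb. It was above the mean of the others for mt-Ts1, at 1.98 times on 16 to 42 counts per library, for mt-Nd3, at 1.67 times, and to a lesser degree for mt-Co3, mt-Th, mt-Atp8 and mt-Tl2, at 1.02 to 1.26 times. For mt-Th, mt-Atp8 and mt-Tl2, Pontin cTG replicate 3 was higher than replicate 2. WT replicate 2 stood at 0.68 and 0.75 times the other WT libraries for mt-Rnr1 and mt-Rnr2 and at 1.98 times for mt-Tl2. Nppa, the atrial natriuretic peptide gene that stressed ventricles also express, was at 7716 normalised counts in Pontin cTG replicate 2 and at 360 to 1842 in the other 5 libraries, and fibroblast markers summed to 25971 and 23641 in the second replicates of WT and Pontin cTG against 14332 to 17091 elsewhere. The part of tissue make-up in these values was not tested.

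**Figure D4:**
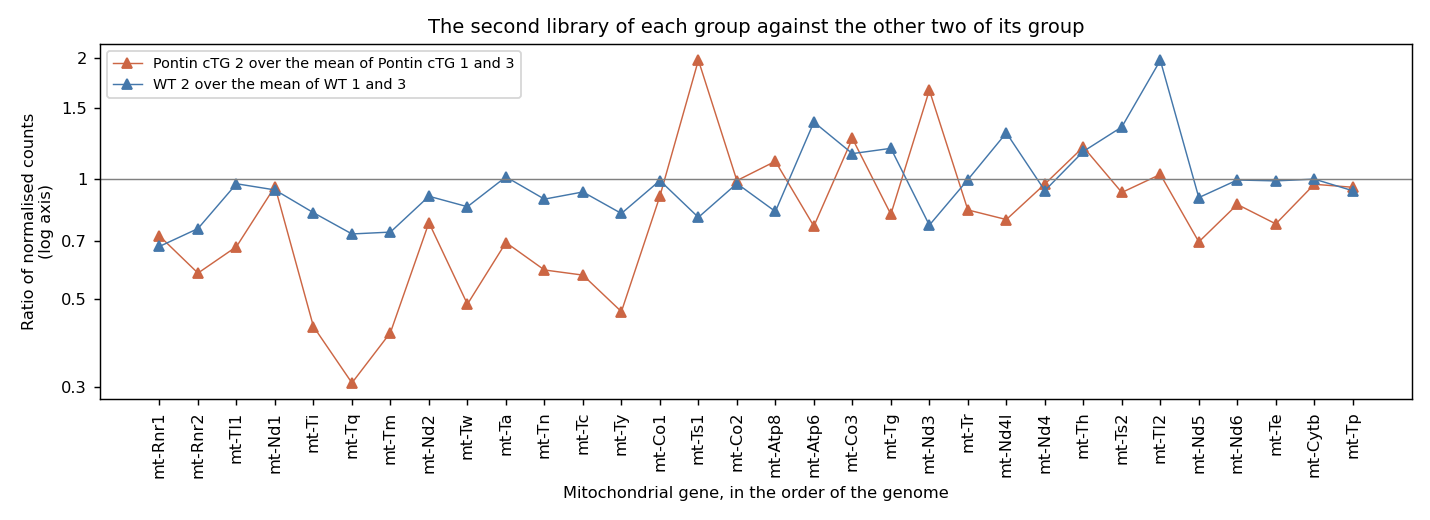
Normalised counts of the second library of each group divided by the mean of the other libraries of its group (y axis, log scale, 1 is no difference) for the 32 mitochondrial genes in genome order. The Pontin cTG library (orange) runs low from mt-Ti to mt-Ty, down to 0.31 at mt-Tq, and the WT library (blue) is low at the rRNAs and at 1.98 for mt-Tl2.

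Pontin cTG replicate 1 was the lowest of the 6 libraries for 10 genes, 7 of them mRNAs, and Pontin cTG replicate 3 the highest for 13. A Pontin cTG library was the lowest of the 6 for 29 of the 32 genes and the highest for 16. WT replicate 1 was the highest for 7 genes, which included mt-Nd1, mt-Nd2, mt-Co1, mt-Nd5, mt-Nd6 and mt-Cytb.

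The nuclear genes that maintain, transcribe and process mitochondrial RNA showed no call either. All 79 were tested, 0 passed an adjusted p of 0.05 in edgeR and in DESeq2, 1 had an edgeR p under 0.05 before adjustment (1.27%, against 2.05% of all genes), and 39 were above and 40 below 0 with a median log2 fold change of 0.00. In 10 of the 79 the groups did not overlap (12.7%, against 8.33% of all genes). The polymerase gene Polrmt was at 400, 324 and 505 normalised counts in WT libraries and 441, 390 and 435 in Pontin cTG hearts (0.04, SE 0.17), and the packaging and promoter factor Tfam at 683, 666 and 655 against 682, 564 and 761 (0.00, SE 0.14). Pnpt1, the polynucleotide phosphorylase of the mitochondrial degradosome, had the lowest p of all 79, with 425, 424 and 426 in WT and 365, 283 and 366 in Pontin cTG hearts (-0.33, SE 0.14, edgeR adjusted p = 0.999, and 0.0414 before adjustment). Lrpprc, which keeps mitochondrial mRNAs stable and polyadenylated, had 3046, 3264 and 2942 against 2880, 2269 and 2712 (-0.24, SE 0.15), without overlap. The lowest p of the other lists belonged to the deoxyguanosine kinase gene Dguok (0.25, SE 0.16), the transcription factor gene Mterf1a (-0.51, SE 0.44, at 11 to 28 counts), the tRNA methyltransferase gene Trmt5 (-0.22, SE 0.12) and the seryl-tRNA synthetase gene Sars2 (0.35, SE 0.20). Lars2, the leucyl-tRNA synthetase gene, varied widely, with 6445, 1328 and 5855 normalised counts in WT libraries and 5031, 1036 and 8633 in Pontin cTG hearts (0.11, SE 0.74), and was lowest in the second replicates as both mitochondrial rRNAs were. None of its 9 transcripts in GENCODE M21 matched a mitochondrial gene.

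The nuclear subunits of the respiratory chain and the ATP synthase had a median on the other side of 0 from that of the mitochondrial mRNAs, although no gene of either was called. They are 77 genes, all tested, and the 4 subunits of complex II are among them. Of the 77, 74 were above 0 and 3 below, with a median log2 fold change of 0.23, against -0.11 over the 13 mitochondrial mRNAs and 0.00 over all genes. The median of the 13 mRNAs ran from -0.21 to -0.03 with 1 library left out, at 9 to 12 values below 0, and was -0.01 with 7 below 0 when libraries were scaled to mitochondrial mRNA. The groups did not overlap, with Pontin cTG higher, in 38 of the 77 (49.4%, against 4.7% of all genes), and 10 had an edgeR p under 0.05 before adjustment, all higher, against 1.02% of all genes. The count of 10 fell to 0 without WT replicate 2 and to 2 without WT replicate 1 or Pontin cTG replicate 3, and was 17 without Pontin cTG replicate 1, 18 in DESeq2 and 24 with library size alone, while the median stayed between 0.18 and 0.30 with any 1 library left out. For complex I the median was 0.26 over 37 nuclear genes and -0.12 over 7 mitochondrial genes. For complex III it was 0.17 over 9 nuclear genes beside -0.03 for mt-Cytb (0.07 when scaled to mitochondrial mRNA), for complex IV 0.27 over 12 beside -0.11 over 3, and for the ATP synthase 0.21 over 15 beside -0.17 for mt-Atp8 and mt-Atp6, which lay on either side of 0. With 1 library left out, the mitochondrial complex I median lay at -0.23 (Pontin cTG replicate 3 omitted) at its lowest and at -0.04 (Pontin cTG replicate 2 or WT replicate 1 omitted) at its highest. That of complex IV lay between -0.20, with Pontin cTG replicate 2 omitted, and -0.03, with Pontin cTG replicate 1 omitted. For the ATP synthase genes the bounds were -0.32 on omitting Pontin cTG replicate 3 and -0.04 on omitting WT replicate 3. Scaled to mitochondrial mRNA, the medians were -0.03 for complex I, -0.01 for complex IV and -0.09 for the ATP synthase. Complex II, which has no mitochondrially encoded subunit, had 0.05 over 4. The nuclear genes with the lowest p of their complex were Ndufb2 (0.45, SE 0.16), Sdhb (0.23, SE 0.13), Uqcrq (0.38, SE 0.15), Cox8b (0.35, SE 0.16) and Atp5e (0.42, SE 0.15), in the order of the complexes, all with an adjusted p of 0.999.

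**Figure D5:**
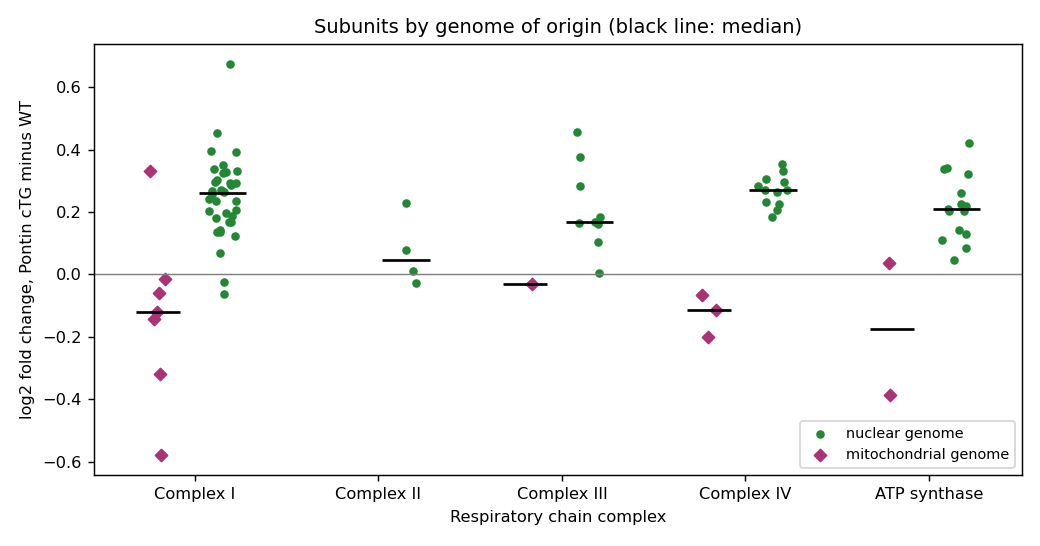
Log2 fold change of Pontin cTG against WT hearts (y axis) for each subunit of the 5 complexes, with mitochondrially encoded subunits as magenta diamonds, nuclear subunits as green points and black lines at the medians. In the 4 complexes built from both genomes the nuclear median lies above 0, between 0.17 and 0.27, and the mitochondrial one below it, between -0.03 and -0.17, with TMM scaling (mt-Cytb, alone in complex III, is above 0 when libraries are scaled to mitochondrial mRNA).

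Within each library, which leaves out the scaling between libraries, the nuclear subunits, complex II included, had 14.1, 14.1 and 15.9 counts per 100 counts of mitochondrial mRNA in WT (14.7 ± 1.07, n = 3) and 17.2, 18.5 and 17.4 in Pontin cTG hearts (17.7 ± 0.71, n = 3), a log2 difference of 0.27 without overlap. For complex I alone the values were 7.50, 7.97 and 8.80 in WT and 9.81, 11.5 and 9.57 in Pontin cTG hearts. The groups did not overlap for complexes III and IV either, and for the ATP synthase they did, at 294 to 440 and 341 to 464. Gene length also moved with the libraries. Across the 13888 genes, the rank correlation of a library's deviation from the mean with gene length was 0.18, 0.17 and 0.11 in WT and 0.08, -0.20 and -0.16 in Pontin cTG hearts, so that shorter genes were relatively higher in Pontin cTG replicates 2 and 3 and relatively lower in the other 4 libraries. The median gene length was 1718 bases for the nuclear subunits, 784 for the mitochondrial mRNAs and 4317.5 for all genes tested, and the part of length in the nuclear values was not tested.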

How the data were processed

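RNA was sequenced from the hearts of 3 WT and 3 Pontin cTG mice given Ang-II. The study's methods name TruSeq v2 libraries, 100 bp paired-end reads, Trimmomatic, STAR, mm10 and Gencode M25. The submitters' processing notes name fastp, HISAT2, featureCounts, DESeq2 and GRCm39 (mm39). These accounts differ, and strand use and the treatment of multi-mapped reads are not given in the sources used here. The values deposited by the authors are whole-number counts per gene, not normalised, in 1 table with all 6 libraries. The table's gene length column, also deposited, was used to give counts per kilobase. MT coordinates, strand and transcripts are those of GENCODE M21 (GRCm38): all 37 MT genes have the same coordinates in the table.

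Genes were filtered with filterByExpr (minimum count 10), scaled by TMM and tested with edgeR 4.0.16 (quasi-likelihood, robust, genotype as the only term) in R 4.3.3, with Benjamini-Hochberg adjustment over 13888 genes. The standard error is the log2 fold change divided by the square root of F. For normalised counts, each count was divided by its library's TMM-scaled size and rescaled to the geometric mean over libraries. Transcripts were compared with BLAST 2.17.0 (e-value limit 1e-10, at least 50 aligned bases). The alternatives were DESeq2 1.42.0, limma-voom (limma 3.58.1) with sample quality weights, other scalings, other filters, a replicate block and each library left out. Adding the chromosome 1 copies, and leaving out both second replicates, were chosen after seeing the data. The fits were first run on simulated counts drawn independently for each gene and library. An outlying library and deviations that follow gene length were not part of that run. Every MT gene is named, and from each nuclear list the gene of lowest p, with Polrmt, Tfam, Lrpprc and Lars2. The other genes named (the pseudogenes, and the adipocyte and atrial markers with Nppa) were chosen after their values were seen, or are the copies. The members and lists were chosen with earlier results of these data known. The WT mice are littermates, but which mice shared a litter is not given, so litter is not in the fit. The p-values treat the mice as independent and measure the spread between them.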

Additional observations from a re-analysis of the deposited data

How the results depend on the processing

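No mitochondrial gene passed an adjusted p of 0.05 under any alternative, the smallest being 0.855, and 12 of the 32 kept the direction of their log2 fold change throughout (mt-Atp8, mt-Co2, mt-Co3, mt-Nd2, mt-Nd4l, mt-Nd5, mt-Nd6, mt-Ta, mt-Te, mt-Tg, mt-Tl1 and mt-Tl2). For several of these only the sign held, with -0.0022 for mt-Tl1 and -0.0065 for mt-Nd2 without Pontin cTG replicate 2, -0.00038 for mt-Co3 with copies added, -0.018 for mt-Co2 without Pontin cTG replicate 1, -0.042 for mt-Atp8 without WT replicate 3 and -0.039 for mt-Tg without both second replicates. With all libraries kept, 21 of 320 values changed sign, and the cause was not tested where the scaling itself does not give it. Scaled to mitochondrial mRNA, log2 fold changes became 0.029 for mt-Co1, 0.067 for mt-Cytb, 0.038 for mt-Nd1, 0.082 for mt-Nd4, 0.037 for mt-Rnr2, 0.025 for mt-Tc, 0.057 for mt-Tn, 0.0085 for mt-Tm, 0.064 for mt-Tr and 0.080 for mt-Ts1. With library size alone mt-Nd4 had 0.016 and mt-Ts1 0.0074. In limma-voom with quality weights mt-Rnr2 had 0.0071, mt-Tc 0.048, mt-Tn 0.072, mt-Tm 0.13, mt-Nd3 -0.12, mt-Th -0.058 and mt-Ts2 -0.11. mt-Atp6 had -0.083 with its chromosome 1 copy added.

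The labels do not say whether the replicate numbers pair the libraries. Correlations of same-numbered deviations were 0.077, 0.43 and 0.19. Between libraries of the 2 groups with different numbers they ran from -0.35 to 0.25. These few values cannot decide whether the libraries were paired. With the replicate block, 0 mitochondrial genes passed, the median was -0.10, and mt-Tq turned to -0.10.

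With libraries left out, the median of the 32 was lowest at -0.23 (Pontin cTG replicate 3 omitted) and highest at 0.022 (Pontin cTG replicate 2 omitted), and that of the 79 nuclear genes of mitochondrial gene expression from -0.057 to 0.078 on the same omissions. Ranges for genes that changed sign were -0.069 to 0.0034 for mt-Cytb, -0.11 to 0.0026 for mt-Nd1, -0.073 to 0.036 for mt-Nd4, -0.24 to 0.18 for mt-Rnr2, -0.21 to 0.33 for mt-Atp6, -0.039 to 0.30 for mt-Rnr1, -0.073 to 0.55 for mt-Nd3, -0.28 to 0.17 for mt-Tc, -0.053 to 0.23 for mt-Tp, -0.41 to 0.070 for mt-Ty, -0.21 to 0.19 for mt-Tn, -0.46 to 0.047 for mt-Tw, -0.50 to 0.058 for mt-Ti, -0.25 to 0.25 for mt-Tm, -0.50 to 0.43 for mt-Tq, -0.14 to 0.056 for mt-Tr, -0.0015 to 0.42 for mt-Th, -0.34 to 0.48 for mt-Ts2 and -0.56 to 0.24 for mt-Ts1. With 3 hearts a group, and 16 to 54 counts per library for mt-Ts1 and mt-Ta, small differences were not detectable.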
